A study of Ovis aries with 16 samples.

Results

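Ketamine given to fetal sheep that never became hypoxic was compared with no ketamine, in frontal cortex collected 24 h after the onset of a 30 min period of normoxia. The comparison used 7 of the 16 arrays of the study, chosen by their titles: 4 normoxia + ketamine arrays (NK1 to NK4) and 3 normoxia control arrays (NC1 to NC3), with 1 fetus on each array. All fetuses were of late gestation and carried vascular catheters placed at earlier surgery. The normoxia + ketamine fetuses had received 3 mg/kg of ketamine into a fetal vein before the 30 min period, and the normoxia control fetuses had received none. The recovery of 23.5 h in normoxia was shared by both groups. By the study's methods nearly all fetuses were twins, and the labels do not say which of them shared a ewe, so the p-values measure only the spread between these samples. The 5 hypoxia control and 4 hypoxia + ketamine arrays entered only the estimate of the spread and the comparison with ketamine before hypoxia. The labels of hypoxia control replicate 1 conflict, because its title and code place it in hypoxia control while its source name reads like a normoxia + ketamine sample, and it was kept in hypoxia control.

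Ketamine is a dissociative anesthetic that enters the open channel of the NMDA receptor, a glutamate-gated channel that admits calcium, and blocks it. At higher concentrations it also binds opioid receptors, muscarinic receptors and monoamine transporters. Blocking NMDA receptors changes the firing of cortical circuits, and the messages that follow firing most closely are those of the immediate early genes such as FOS, while neuropeptides and their receptors are messages by which cortical neurons modulate each other.

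Each probe on the array was a strand of 60 bases, and its level is given as log2 of a background-corrected, quantile-normalized intensity, on which a difference of 1 is a doubling. A log2 fold change is the mean of the 4 normoxia + ketamine arrays minus the mean of the 3 normoxia control arrays. Calls rest on limma's moderated test with an unadjusted P under 0.05, the rule of the original methods, and "rose" and "fell" are used of called probes only. Between 69.2 and 76.9% of spots were well above background on the normoxia control arrays and between 72.5 and 75.7% on the normoxia + ketamine arrays, and pairs of these 7 arrays correlated between 0.992 and 0.996 over all probes. The arrays lay on 2 slides, with 2 normoxia control and 2 normoxia + ketamine arrays on the first and 1 and 2 on the second. The number of arrays limits the precision. In whole cortex, fewer cells of a type and less RNA per cell cannot be told apart.

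Ketamine alone was accompanied by few and small differences. Of 15008 probes, 132 were higher (0.88%) and 215 lower (1.43%) in normoxia + ketamine, which makes 347 called probes or 2.31% of those tested, against the 5% or 750.4 probes that the threshold alone would give. None passed the adjustment for many tests by Benjamini and Hochberg, where the lowest adjusted P was 1.00 after rounding, and the lowest unadjusted limma P was 0.00068. Of 1656 probes with a gene name 47 were called, or 2.84%, under 40 names. The median size of a called log2 fold change was 0.23. Called changes of at least 2-fold numbered 6, of which 1 was higher and 5 lower, and those of at least 1.5-fold numbered 18, of which 3 were higher and 15 lower. The 1 called increase of at least 2-fold, also among the 3, was A_70_P035811. It rested on NC2 alone, where the local background exceeded the signal of the spot. The called probes were 38.0% higher, and 50.9% higher (173 higher, 167 lower) when the scanner software's processed signal was scaled to the 75th percentile of each array. The groups did not overlap for 663 of 14954 probes measured on all 7 arrays (4.43%), with ketamine higher for 298 (1.99%) and lower for 365 (2.44%), and for 189 of the called probes. Within both slides 336 of the 344 called probes with a value on each had the same sign. These probes were chosen for their difference over the same 7 arrays, which favors equal signs, so this count is no separate support. The threshold, and not any adjustment for the number of probes, therefore defines every call in what follows.

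**Figure D1:**
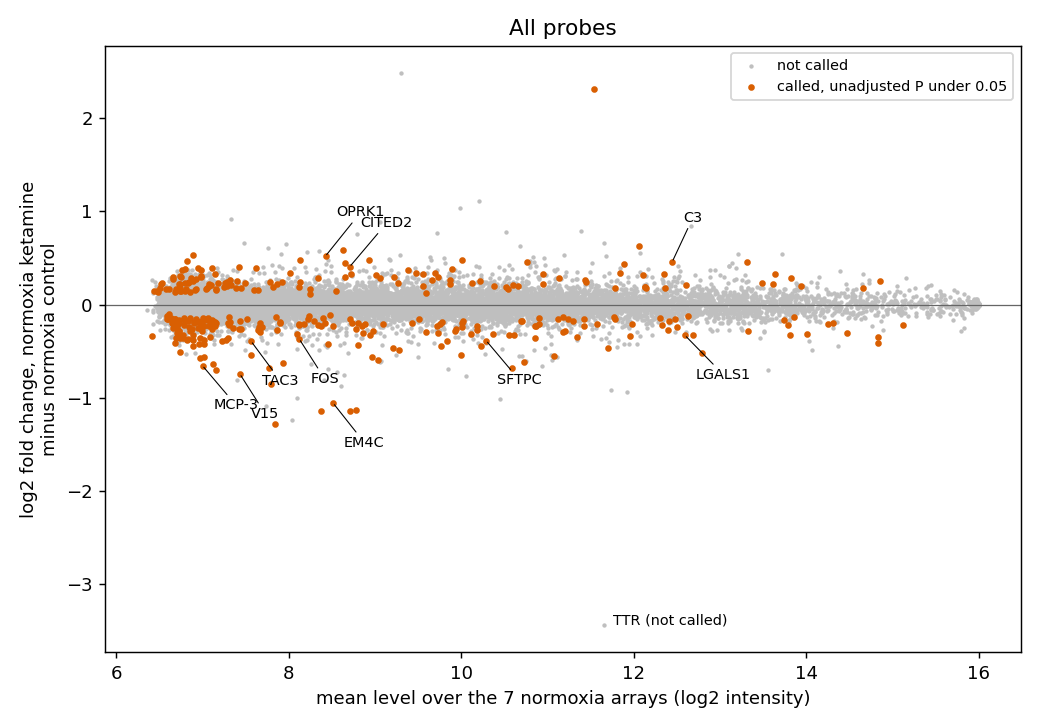
Log2 fold change of normoxia + ketamine against normoxia control (vertical axis) by mean log2 intensity over the 7 normoxia arrays (horizontal axis), 1 point for each of 15008 probes, with the 347 called probes in orange and selected probes labelled. Most called probes lie within 0.5 of 0, the largest called decreases include EM4C at -1.06, and TTR at -3.44 was not called.

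Of the receptors, channels and transporters that ketamine acts on, the gene that rose was OPRK1, which encodes the kappa opioid receptor, the receptor of dynorphin peptides. Of 47 genes on this list 11 were on the array with a name, 1 was called, 8 lay above 0, and their median log2 fold change was 0.11, against 0.0011 for all probes and 0.011 for the 1008 named genes with 1 probe each. Of those 1008 genes 31 were called (3.08%) and 555 lay above 0. OPRK1 read 8.08, 8.18 and 8.13 on the normoxia control arrays and 8.73, 8.57, 8.42 and 8.89 on the normoxia + ketamine arrays. Every ketamine array was above every control array. The log2 fold change was 0.52 (standard error 0.14, limma, unadjusted P = 0.0024, adjusted P = 1.00). A two-sided exact permutation test over the 7 arrays gave p = 0.057, the smallest that 4 against 3 allow. A second probe, which shares 59 bases with it, rose by 0.44. The difference of the first probe was 0.52 on each slide.

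The NMDA receptor itself was represented by GRIN1, the obligatory subunit, which has 3 probes with log2 fold changes of 0.21, 0.26 and 0.25 (limma, unadjusted P = 0.28, 0.21 and 0.23), the last pair sharing 59 bases. The brightest of them read 9.46, 9.67 and 9.82 on the control arrays and 9.63, 9.74, 10.08 and 9.98 on the ketamine arrays. These ranges overlap, with NK3 and NK4 above all controls. Among AMPA receptor subunits, which carry the fast glutamate current, GRIA4 differed by 0.24 (unadjusted P = 0.098), GRIA1 by 0.05, GRIA3 by -0.04 and GRIA2 by -0.09, and none was called. The mu opioid receptor OPRM1 differed by 0.11 and the muscarinic receptor CHRM3 by 0.20, the latter with NK1 at 8.00 and the other 6 arrays between 7.12 and 7.34. The noradrenaline transporter SLC6A2 (0.21) and the serotonin transporter SLC6A4 (0.06) were dim, the first well above background on 1 of 3 control and 3 of 4 ketamine arrays and the second on none. The serotonin receptor HTR2A, well above background on 2 control and 2 ketamine arrays, differed by -0.19, with NK1 and NK3 at 6.68 and 6.72 and the others between 7.02 and 7.20.

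**Figure D2:**
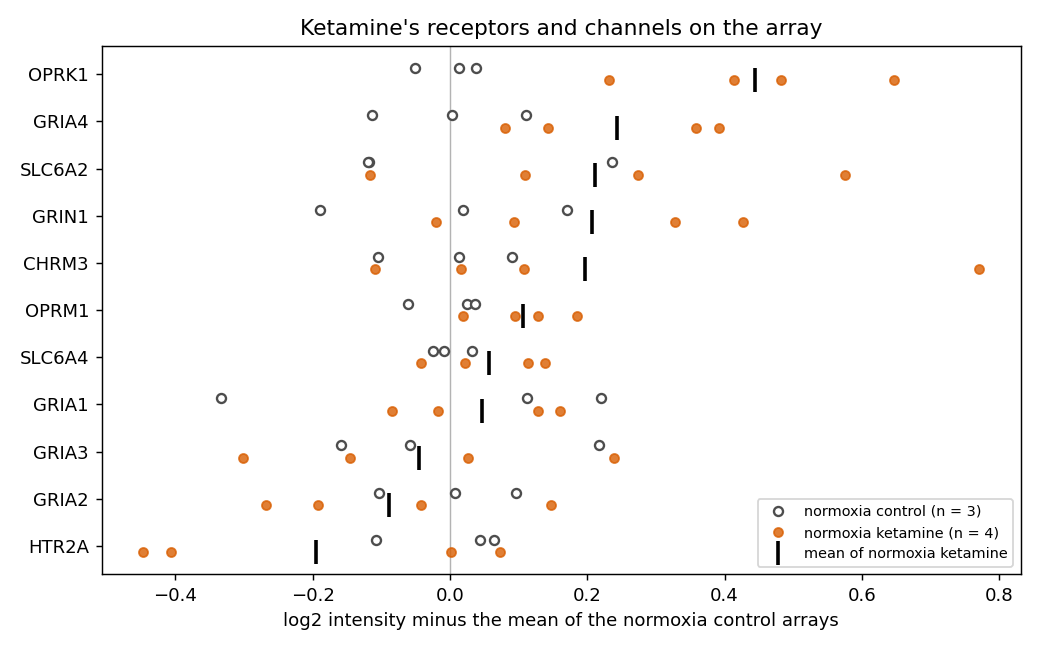
Values of the 11 genes of the ketamine target list on each of the 7 normoxia arrays, as log2 intensity minus the mean of the 3 normoxia control arrays, 1 probe per gene (the brightest). Open points are controls, filled points ketamine arrays, and the black bar the ketamine mean. For OPRK1 all ketamine arrays lie to the right of all controls, and for the other 10 genes the groups overlap.

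Among neuropeptide genes, TAC3 fell. It encodes the precursor of neurokinin B, a tachykinin that signals to neurons through the receptor NK3R. The probe is shown because it lies on the peptide itself, and the capitals mark the 30 bases that encode neurokinin B:
TAC3: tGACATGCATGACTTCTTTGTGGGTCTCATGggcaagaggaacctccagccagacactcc
TAC3 read 7.91, 7.67 and 7.80 on the normoxia control arrays and 7.23, 7.47, 7.36 and 7.52 on the normoxia + ketamine arrays. All 4 ketamine arrays were below all controls. The log2 fold change was -0.40 (standard error 0.10, limma, unadjusted P = 0.0017, adjusted P = 1.00, exact permutation p = 0.057), and it was -0.44 on the first slide and -0.36 on the second. Of 43 neuropeptide and receptor genes 23 were on the array, TAC3 was the 1 called, and the median was 0.0071. ADCYAP1, the gene of the neuropeptide PACAP, had a larger difference (-0.94, unadjusted P = 0.19) that was carried by NK1 at 9.48, with the other 6 arrays between 11.97 and 12.76. The interneuron peptides somatostatin (SST, -0.25, unadjusted P = 0.15, with all ketamine arrays below all controls) and neuropeptide Y (NPY, 0.19, unadjusted P = 0.24) were not called, nor was TAC1, the gene of substance P (0.15).

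FOS, the immediate early gene most used as a mark of recent neuronal firing, lay below 0 on all of its 4 probes, and fell on 1 of them by the threshold. The 2 sequences printed are of different stretches of the message, those for the leucine zipper and the basic region, with no part in capitals because they share no run longer than 8 bases:
FOS zipper probe: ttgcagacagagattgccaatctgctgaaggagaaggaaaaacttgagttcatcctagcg
FOS basic region probe: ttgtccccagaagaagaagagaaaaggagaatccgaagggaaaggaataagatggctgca
The zipper probe read 8.38, 8.20 and 8.43 on the control arrays and 7.94, 7.95, 7.96 and 8.00 on the ketamine arrays. The ketamine arrays lay within 0.1 of each other and below every control. Its log2 fold change was -0.37 (standard error 0.17, limma, unadjusted P = 0.041, adjusted P = 1.00, exact permutation p = 0.057). A probe sharing 59 bases with it differed by -0.35 (unadjusted P = 0.0502), the basic region probe by -0.19 (unadjusted P = 0.10), and the brightest probe by -0.55 (unadjusted P = 0.059). The brightest read 11.47, 11.09 and 11.51 on the control arrays and 10.73, 11.01, 10.70 and 10.81 on the ketamine arrays, again with no overlap. Calls of FOS were lost without any of NC1, NC3 or the 4 ketamine arrays. Of the 7 immediate early and activity genes on the array, taken by their brightest probe, none was called and the median was -0.15. Of these 7 genes 3 lay above 0 and 4 below. EGR1 differed by -0.22, JUNB by -0.16, CREM by -0.15, JUN by 0.16 and CITED2, described below, by 0.24.

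C3, the central protein of the complement cascade, rose on both of its probes. They are shown because they lie on separate parts of the message, sharing no run longer than 5 bases:
C3 first probe: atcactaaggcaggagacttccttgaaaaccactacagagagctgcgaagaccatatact
C3 second probe: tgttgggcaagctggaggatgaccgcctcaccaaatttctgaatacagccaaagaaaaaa
The first read 12.16, 12.24 and 12.16 on the control arrays and 12.24, 12.76, 13.13 and 12.45 on the ketamine arrays. NK3 was highest and NK1 level with the highest control to the second decimal. The log2 fold change was 0.46 (standard error 0.18, limma, unadjusted P = 0.020, adjusted P = 1.00, exact permutation p = 0.057). The second probe also rose by 0.46 (unadjusted P = 0.023), with NK1 inside the control range. Without NK3 neither probe was called, and the second probe was also not called without NC1, NC3 or NK2. Of 48 complement and coagulation genes 9 were on the array, C3 was the 1 called, 8 lay above 0 and the median was 0.12. Of the 1008 named genes with 1 probe each 3.08% were called and 555 lay above 0. The C5a receptor C5AR1 differed by 0.17 (unadjusted P = 0.43).

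The 31 genes of toll-like receptor signaling on the array, FOS among them, were taken by their brightest probe. TLR7, an endosomal sensor of single-stranded RNA, was the 1 called (0.22, standard error 0.083, limma, unadjusted P = 0.018), and the median was 0.045. The call was lost without NC1. TLR7 was dim, well above background on 1 of 3 control and 3 of 4 ketamine arrays, and a second probe at 0.14 was well above background on none. TLR2 (-0.01), TLR4 (0.05), MYD88 (-0.06) and CD14 (0.14) were not called. Of 29 cytokines, chemokines and their receptors none was called, 14 lay above 0 and 15 below, and the median was -0.0021, with IL1B at -0.0021 and TNF at 0.01. Of 7 interferon-stimulated genes none was called and 6 lay below 0, against 453 below 0 of the 1008 named genes. ISG15 (-0.67) and MX1 (-0.54) took their negative values from NC1, which read 12.29 and 11.55 while the other 6 arrays lay between 10.34 and 10.99 for ISG15 and between 9.60 and 10.42 for MX1. A further list held 15 genes, those with PCR assays beside these arrays. By their brightest probe none was called, BAX included, and their log2 fold changes ran from -0.27 to 0.23.

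Among regulators of transcription and metabolism, CITED2 rose. It encodes a coactivator-binding protein that competes with HIF-1 for its coactivator. The probe that was called is shown to identify it:
CITED2: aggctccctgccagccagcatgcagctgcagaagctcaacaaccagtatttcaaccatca
It read 8.64, 8.31 and 8.48 on the control arrays and 9.05, 8.67, 8.98 and 8.82 on the ketamine arrays. All ketamine arrays were above all controls, NK2 only just. The log2 fold change was 0.41 (standard error 0.12, limma, unadjusted P = 0.0031, adjusted P = 1.00, exact permutation p = 0.057). A second probe sharing 59 bases differed by 0.24 and was not called (unadjusted P = 0.13). PPARGC1A, the coactivator PGC-1alpha that raises mitochondrial gene expression, rose by 0.25 on 1 of its 3 probes (unadjusted P = 0.049), with NK3 at 8.58 and the other ketamine arrays between 8.09 and 8.16. Its other probes differed by 0.15 and 0.01, and the call was lost without any 1 of 11 arrays. SLC25A5, which exchanges ADP and ATP across the inner mitochondrial membrane, rose by 0.17 and TCP1, a subunit of the chaperonin that folds actin and tubulin, by 0.19. The call of SLC25A5 was lost without NC1 or NK3, and that of TCP1 without NC2, NC3, NK3 or NK4. A second TCP1 probe differed by 0.14 and was not called (limma, unadjusted P = 0.060).

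LDHA, the lactate dehydrogenase subunit that converts pyruvate to lactate, fell on both of its probes, by 0.29 and 0.34 on the log2 scale. The brighter probe read 13.48, 13.48 and 13.51 on the control arrays and 12.92, 13.46, 13.08 and 13.35 on the ketamine arrays. NK1 and NK3 were lowest and NK2 was within 0.03 of the controls. The limma unadjusted P was 0.022 and 0.028, and both calls were lost without NC3, NK1 or NK3. Of 15 hypoxia-response genes on the array, taken by their brightest probe, LDHA was the 1 called, and the median was 0.012. The glucose transporters SLC2A1 (0.01) and SLC2A3 (-0.12), HIF1A (-0.0058) and VEGFA (0.12) were not called. Of 23 genes of energy metabolism PPARGC1A was the 1 called, and the median was 0.065.

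BAX, a pore-forming promoter of apoptosis, rose by 0.20 on 1 probe (standard error 0.091, limma, unadjusted P = 0.045) from 9.49, 9.30 and 9.54 on the control arrays to 9.68, 9.56, 9.66 and 9.67 on the ketamine arrays. The ketamine arrays were above all controls, NK2 only just. A brighter probe sharing 59 bases differed by 0.15 (unadjusted P = 0.12). The call was lost without any 1 of 9 arrays. Of 11 apoptosis genes on the array, taken by their brightest probe, none was called and the median was 0.036. The survival kinase AKT1 differed by 0.20 (unadjusted P = 0.051) and BCL2, an inhibitor of apoptosis, by 0.04.

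The other named increases were of genes with unlike roles. KITLG, the ligand of the receptor tyrosine kinase KIT, read 7.39, 7.67 and 7.13 on the control arrays and 7.76, 7.52, 8.06 and 7.84 on the ketamine arrays. NK2 lay within the control range. The log2 fold change was 0.40 (standard error 0.15, limma, unadjusted P = 0.018, exact permutation p = 0.11), but it was 0.11 on the first slide and 0.82 on the second. A second probe of KITLG rose by 0.37 (limma, unadjusted P = 0.045), but was well above background on 0 of 3 control and 2 of 4 ketamine arrays. Its groups overlapped, with NC2 at 6.87 above NK2 at 6.74. NK4 was highest at 7.76, and the slides gave 0.04 and 0.74. CD9, a tetraspanin of the cell membrane, rose by 0.34 and ST3GAL4, which adds sialic acid to glycans, by 0.29. PTGER3, a receptor of prostaglandin E2, rose by 0.25, and ADRB1, the beta-1 adrenergic receptor, by 0.18. Their unadjusted P values (limma) lay between 0.017 and 0.047, and each call was lost without some single arrays: NC3 or NK3 for KITLG, NC3 or NK4 for ADRB1, 7 arrays for PTGER3, 5 for ST3GAL4 and 10 for CD9. A second CD9 probe sharing 59 bases differed by 0.26, and a second PTGER3 probe sharing 58 bases by 0.13. Neither of these second probes was called (limma, unadjusted P = 0.13 and 0.32). Of 8 prostaglandin genes on the array PTGER3 was the 1 called. PTGS2, the inducible cyclooxygenase, differed by -0.70 (unadjusted P = 0.19), with control arrays at 9.55, 10.25 and 10.95 and ketamine arrays at 8.59, 10.57, 9.24 and 9.80.

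**Figure D3:**
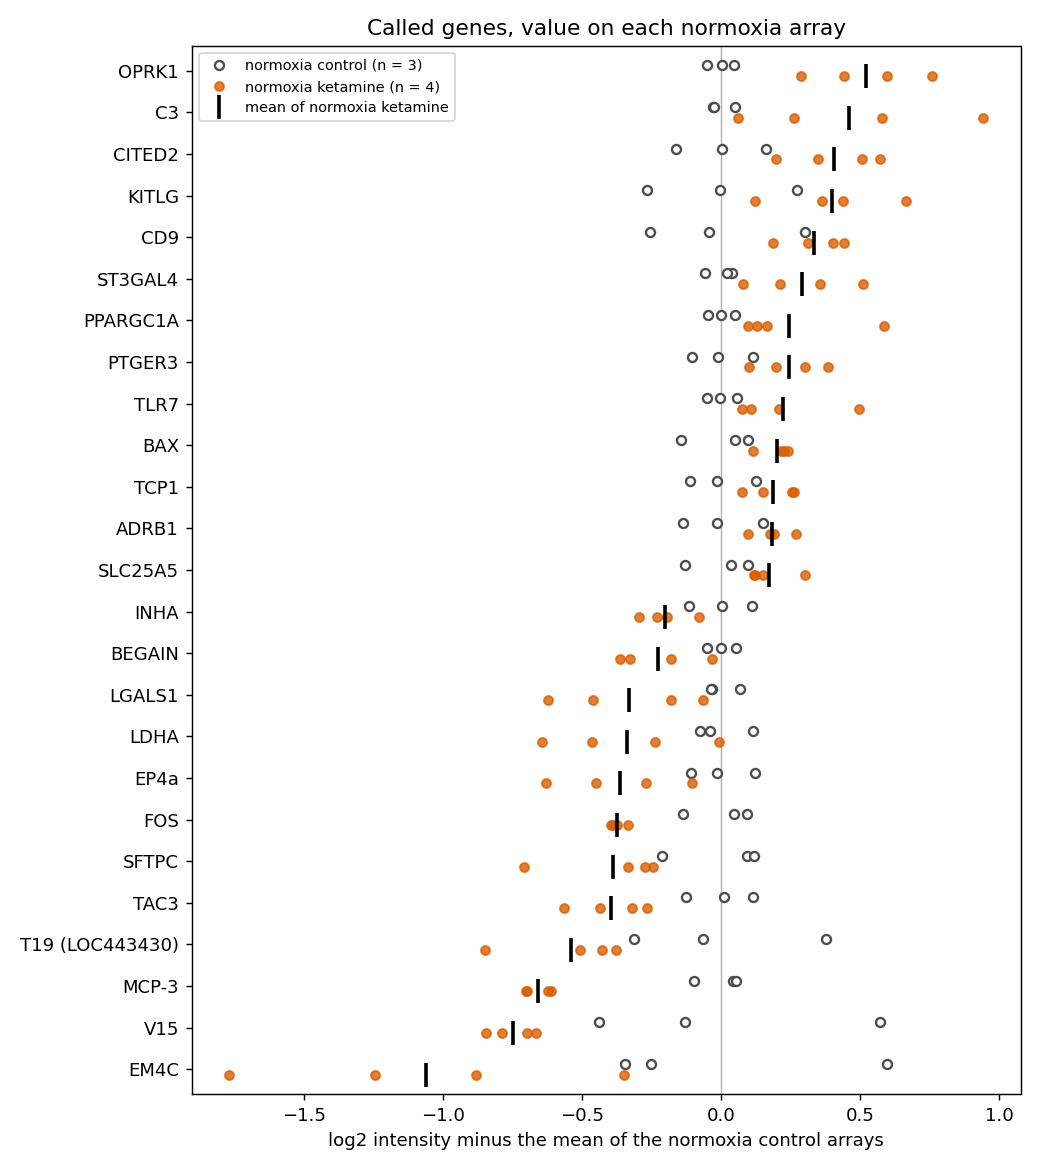
Values on each of the 7 normoxia arrays for the called genes named in the text, 1 probe per gene, as log2 intensity minus the mean of the 3 normoxia control arrays. Open points are controls, filled points ketamine arrays, and the black bar the ketamine mean, which runs from 0.52 for OPRK1 to -1.06 for EM4C.

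The largest decreases, leaving out probes that the files describe only by a cDNA library, came from probes of T19 and from EM4C. T19 is the sheep name of WC1, a family of scavenger receptor molecules carried by gamma delta T cells of ruminants, whose genes are near copies of each other. The labels of the T19 isolates on the array read gd+ve for isolate 3.3, CD4.2 for isolate 7.3 and CD4.1 for isolate 5.4. The probes with the largest decreases were made from isolates 3.3 and 7.3 of the T19 message. They are printed because they share the run of 40 bases in capitals, so that they cannot be taken for independent measurements:
T19 isolate 3.3: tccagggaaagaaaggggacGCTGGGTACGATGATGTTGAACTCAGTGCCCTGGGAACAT
T19 isolate 7.3: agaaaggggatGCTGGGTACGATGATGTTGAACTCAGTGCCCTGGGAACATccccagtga
A further set of T19 probes shares the 21 bases in capitals:
T19 isolate 5.4: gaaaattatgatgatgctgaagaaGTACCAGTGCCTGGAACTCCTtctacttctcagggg
T19 scavenger receptor homolog: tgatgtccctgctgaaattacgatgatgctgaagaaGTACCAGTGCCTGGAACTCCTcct
T19 isolate 7.3, second probe: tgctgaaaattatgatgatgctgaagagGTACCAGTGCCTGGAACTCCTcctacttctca

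The isolate 3.3 probe read 9.07, 8.73 and 9.29 on the control arrays and 7.31, 8.07, 7.68 and 8.49 on the ketamine arrays. Its log2 fold change was -1.14. The isolate 7.3 probe read 9.25, 9.14 and 9.90 on the control arrays and 7.71, 8.51, 8.14 and 8.83 on the ketamine arrays, with a log2 fold change of -1.13. On both, NK1 was lowest and NK4 highest of the ketamine arrays, and all ketamine arrays were below all controls. EM4C, which the files describe only as a partial message, read 8.87, 8.78 and 9.72 on the control arrays and 7.35, 8.24, 7.88 and 8.77 on the ketamine arrays. Its log2 fold change was -1.06 (standard error 0.48, limma, unadjusted P = 0.042, adjusted P = 1.00, exact permutation p = 0.057). NK4 lay just under the lowest control, and the call was lost without NC1, NC3, NK1, NK2, NK3, hypoxia control replicate 2 or hypoxia + ketamine replicates 3 or 4. The called isolate 5.4 probe (LOC443430) fell by 0.54 and the called probe of EP4a, also a partial message, by 0.36, while 3 other EP4a probes, none well above background, differed by -0.04, -0.03 and 0.06. The isolate 5.4 call was lost without NC1, NC3, NK1 or NK2, and that of EP4a without NC3, NK3 or NK4.

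All 6 probes described as T19 were below 0, from -1.14 to -0.34, and 3 were called lower. Of 15 probes of the EM4 and EP4 clones 11 were below 0, 2 were called lower and 2 were well above background on all 7 arrays, and their median was -0.07. These 21 probes were brought together after their values were seen, and so their counts are a description. Among other T cell genes, TCRD19, a T cell receptor delta chain named here after its values were seen, read 7.71, 6.84 and 7.07 on the control arrays and 6.83, 6.76, 6.58 and 6.95 on the ketamine arrays. It was well above background on 2 of 3 control arrays and on no ketamine array, and was called lower (-0.43, limma, unadjusted P = 0.020), though the groups overlap and NC1 stood above the rest. The markers of T cells in general were not called, with CD3E at 0.06, CD3D at -0.06 and CD5 at 0.09, and CD4 was well above background on no array. The summed level of the 4 T and B cell markers on the array ran from 9.27 to 9.54 in normoxia control and from 9.41 to 9.54 in normoxia + ketamine. In the hypoxia arms the same probes varied widely within a group, the isolate 3.3 probe from 7.69 to 9.94 in hypoxia control and from 7.95 to 10.14 in hypoxia + ketamine.

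**Figure D4:**
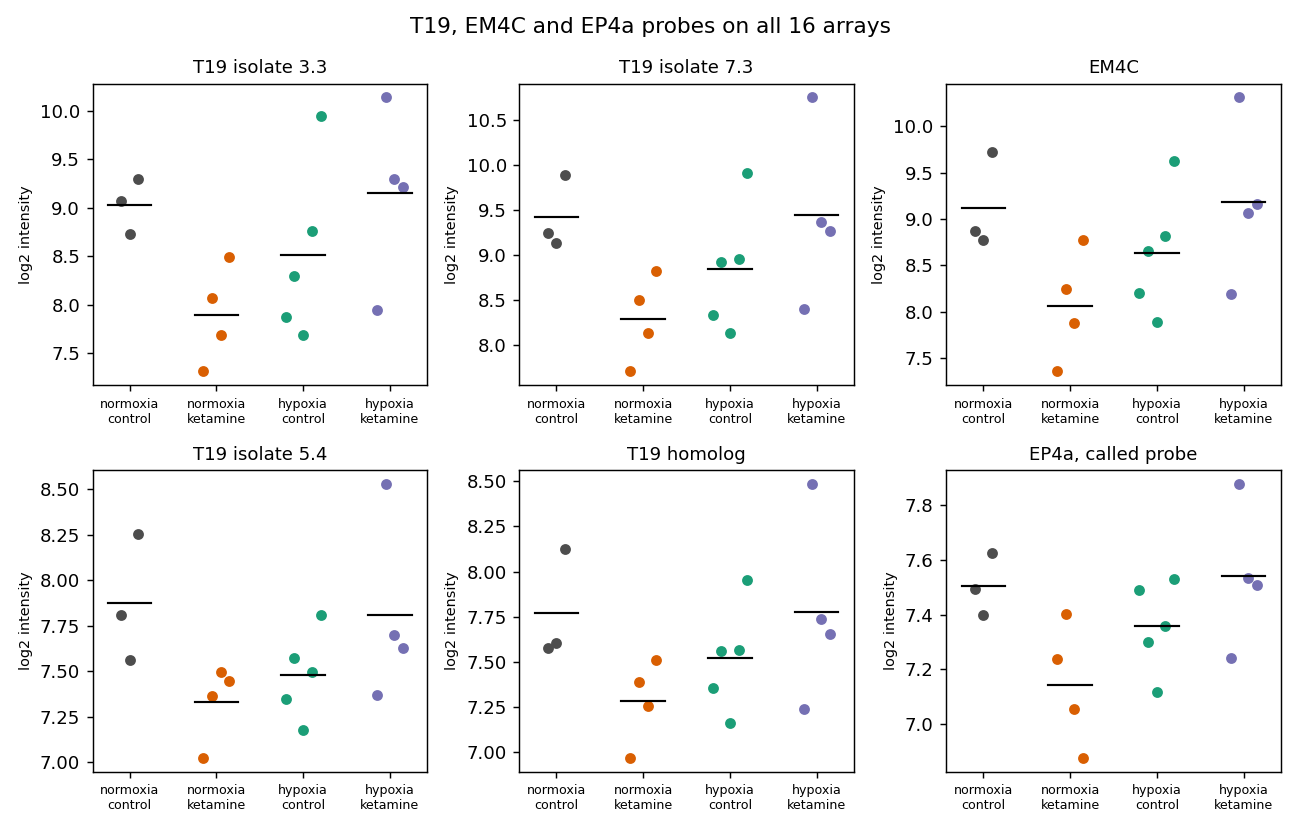
Log2 intensity of 6 probes for T19, EM4C and EP4a on all 16 arrays, by group (3 normoxia control, 4 normoxia + ketamine, 5 hypoxia control, 4 hypoxia + ketamine), with a line at each group mean. Normoxia + ketamine has the lowest mean in every panel, and hypoxia + ketamine replicate 2 has the highest value, such as 10.14 for isolate 3.3.

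V15, which the files give for a wool keratin, fell on both probes, by 0.75 and 0.64 on the log2 scale. The first read 7.42, 7.73 and 8.43 on the control arrays and 7.08, 7.20, 7.17 and 7.02 on the ketamine arrays. NC3 stood above the others, the second slide gave -1.34 against -0.44 on the first, and the call was lost without NC3. MCP-3, here mast cell proteinase-3, read 7.42, 7.43 and 7.28 on the control arrays and 6.77, 6.68, 6.76 and 6.67 on the ketamine arrays, where it was not well above background on any array. Taking for each ketamine array the lowest signal among probes well above background, where that was the higher, it was at least 1.39-fold higher in normoxia control (limma, unadjusted P = 0.019, adjusted P = 1.00). Its other probe differed by -0.29 and was not called (unadjusted P = 0.48), and the call was lost without NC2.

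SFTPC, known as the surfactant protein C gene of lung, fell on both probes, by 0.39 and 0.35 on the log2 scale. The first read 10.30, 10.61 and 10.63 on the control arrays and 9.81, 10.27, 10.24 and 10.18 on the ketamine arrays. The ketamine arrays were all below the controls, and NK1 was lowest. The standard error was 0.13 (limma, unadjusted P = 0.0095, adjusted P = 1.00), and the differences on the slides were -0.42 and -0.42. LGALS1, galectin-1, a secreted lectin that binds matrix and cell-surface glycans, fell by 0.33 on the first of its probes:
LGALS1 first probe: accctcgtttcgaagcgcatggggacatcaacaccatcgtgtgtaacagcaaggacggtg
LGALS1 second probe: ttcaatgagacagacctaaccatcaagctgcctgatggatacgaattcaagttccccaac
The sequences are printed because the probes lie apart on the message and gave unequal results. The first read 12.75, 12.85 and 12.75 on the control arrays and 12.32, 12.60, 12.72 and 12.16 on the ketamine arrays (limma, unadjusted P = 0.043), and the second differed by -0.19 (unadjusted P = 0.21). The groups of the first did not overlap, NK3 being just below the controls. BEGAIN, a partner of the postsynaptic scaffold protein PSD-95, fell by 0.23 (unadjusted P = 0.042), with a second probe at -0.22 that was not called. INHA, the inhibin alpha subunit, fell by 0.20 (unadjusted P = 0.045), while a second probe sharing 59 bases with it differed by -0.03. The calls of LGALS1 and BEGAIN were each lost without any 1 of 5 arrays, and that of INHA without any 1 of 8.

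Across the 20 pathway lists, with each gene taken by its brightest probe, no list had more than 1 called gene. FOS, CITED2 and BAX were called through dimmer probes and are not counted as called there. The lists with a called gene were the ketamine targets, neuropeptides, complement, toll-like receptors, hypoxia response, prostaglandins, energy metabolism, extracellular matrix (LGALS1 of 19 genes, median 0.11) and growth factors (INHA of 35 genes, median -0.02). Of the 1008 named genes with 1 probe each 31 were called, or 3.08%, with 14 higher and 17 lower. No gene was called among 16 ribosomal and translation genes (median 0.0072), 9 of mitosis and the cell cycle (0.047), 9 of ubiquitination and the proteasome (-0.0018), 9 of the glucocorticoid and stress response (-0.015), 3 of potassium transport (0.0097) and 4 housekeeping genes (0.010). Within the stress list the mineralocorticoid receptor NR3C2 differed by 0.55 (unadjusted P = 0.074), with control arrays at 11.48, 11.99 and 11.79 and ketamine arrays at 12.57, 11.98, 12.72 and 11.95. NK1 and NK3 were above all controls, and NK2 and NK4 were among them.

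**Figure D5:**
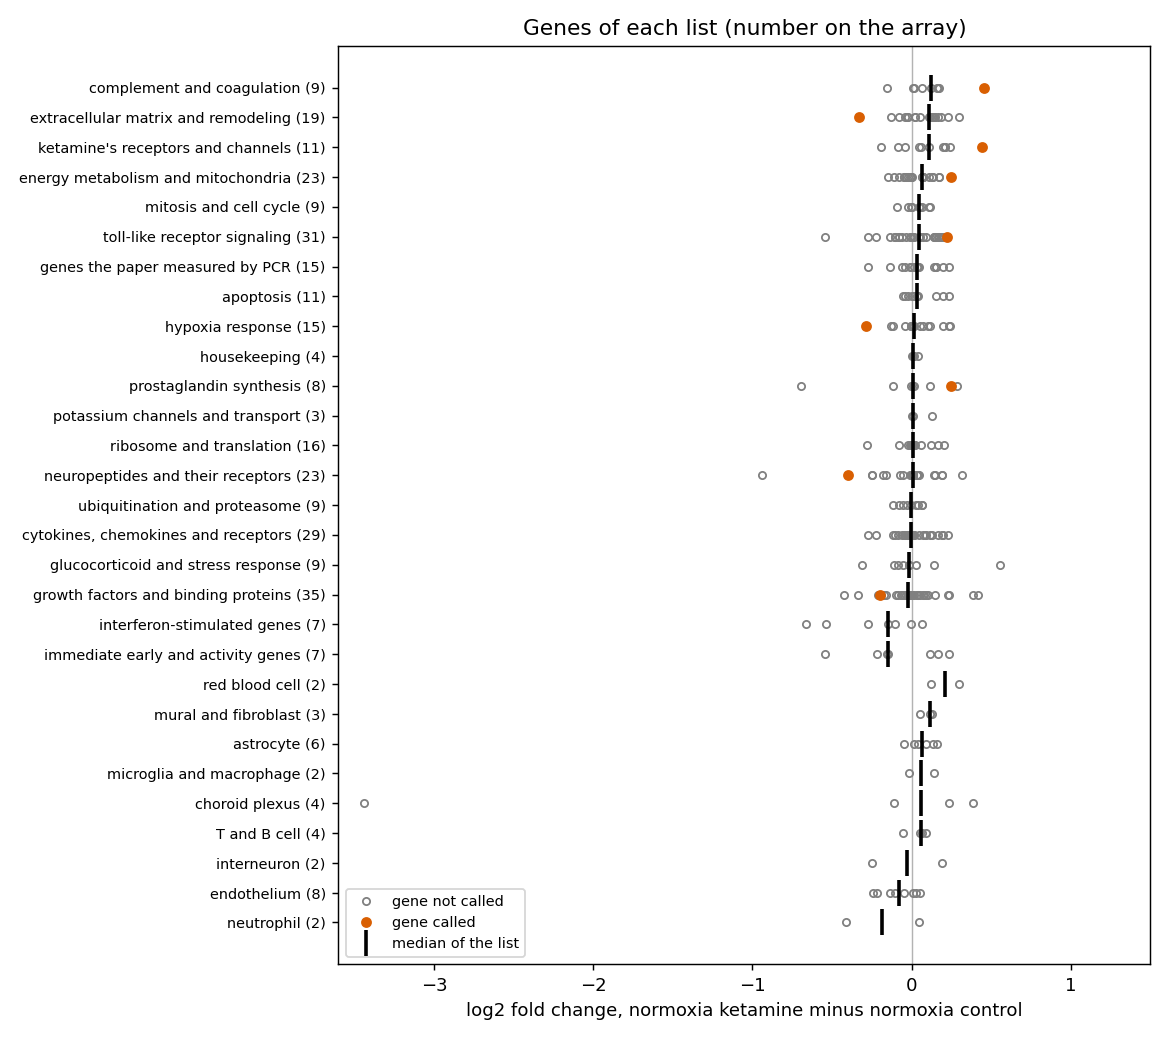
Log2 fold change of normoxia + ketamine against normoxia control for the genes of each pathway and cell type list, 1 brightest probe per gene, with the number on the array in brackets. Called genes are filled, and the bar marks the median of the list, which lies between -0.18 and 0.21 for every list shown. TTR is the point at -3.44.

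The cell types of cortex could be examined only in part. None of the 8 neuron or 9 oligodendrocyte markers was found by name on the array. Markers of astrocytes (AQP4 at 15.29 to 15.63, GJA1 and GFAP) and of interneurons (SST at 15.42 to 15.99, NPY) were well above background on all 7 arrays. No cell type marker was called. The summed levels of the groups did not overlap for the 2 interneuron markers, at 16.17 to 16.22 in normoxia control and 15.81 to 16.10 in normoxia + ketamine, nor for the 2 neutrophil markers, at 8.45 to 8.64 and 8.17 to 8.33. The interneuron markers went opposite ways, SST at -0.25 and NPY at 0.19, so their sum does not show a change that both share. The neutrophil sum followed LTF, the lactoferrin gene (-0.41, unadjusted P = 0.32), while CYBB was well above background on no array. The part of either cell type in the other differences was not tested. The 6 astrocyte markers summed to between 15.5 and 15.8 in both groups, the 8 endothelial markers to between 11.2 and 11.3 in normoxia control and between 11.0 and 11.2 in normoxia + ketamine. A sum is log2 of the added intensities, so its brightest gene weighs most. The astrocyte sum is nearly that of AQP4, since GJA1 read 12.0 to 12.4, and PECAM1 (9.9 to 10.4) was the brightest endothelial gene. Taken singly, astrocyte genes differed by -0.05 to 0.16 and endothelial genes by -0.24 to 0.05. Of the 2 microglia and macrophage markers on the array CD14 differed by 0.14 and ITGAM by -0.02. The erythrocyte gene HBB read 14.77, 13.83 and 13.32 on the control arrays and 14.87, 13.93, 14.64 and 13.66 on the ketamine arrays, with ranges that overlap widely. TTR, the transthyretin gene that is strongest in choroid plexus, read 16.00, 15.55 and 9.33 on the control arrays and 8.42, 12.83, 9.31 and 10.19 on the ketamine arrays. NC1 and NC2 stood far above the rest, and the difference of -3.44 was not called (standard error 1.71, limma, unadjusted P = 0.063). It was -5.15 on the first slide and 0.42 on the second. The other choroid plexus markers did not follow TTR, with IGF2 at 0.39, IGFBP2 at 0.23 and AQP1, well above background on no array, at -0.11. The part of choroid plexus in the other differences was not tested.

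The difference between the groups with and without ketamine in normoxia was set against the same difference in hypoxia, which uses none of the same arrays. The test of the difference between them called 953 probes (6.35%), of which none held after adjustment over all probes (limma, lowest adjusted P 0.734). Most genes given here were chosen for their change in normoxia, which is a term of that difference. C3 moved by 0.46 in normoxia and by -0.74 in hypoxia on its second probe (difference 1.199, unadjusted P = 0.00016). OPRK1 moved by 0.52 and -0.14 (difference 0.66, unadjusted P = 0.0033), and CITED2 by 0.41 and -0.03 (difference 0.44, unadjusted P = 0.012). GRIN1, which was not called in normoxia, moved by 0.21 and -0.33 (difference 0.54, unadjusted P = 0.044). EM4C moved by -1.06 and 0.55 (difference -1.61, unadjusted P = 0.023). For TAC3 (-0.40 and -0.14, difference -0.26, unadjusted P = 0.081), FOS (-0.37 and -0.13, unadjusted P = 0.30), SFTPC (-0.39 and -0.17, unadjusted P = 0.23) and LDHA (-0.29 and -0.06 on the brighter probe, unadjusted P = 0.14) the test of the difference missed the threshold, which does not show that ketamine acted alike with and without hypoxia.

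Most called probes carried no gene name, with 111 of 132 higher and 189 of 215 lower. The largest called increase among them, A_70_P035811 at 2.32, rested on NC2 at 5.94 against 12.3 to 12.6 on the other 6 arrays, and on NC2 the local background of 5824 exceeded the spot's mean signal of 5640. A_70_P053776 rose by 0.62, from 11.7, 11.8 and 11.6 to 12.3, 12.2, 12.9 and 11.9. A_70_P021816 fell by 1.28 on the log2 scale, from 8.00, 8.35 and 9.37 to 7.00, 7.77, 7.24 and 7.18, with no overlap, and the files list its sequence among those matched by the first V15 probe. A_70_P015751 fell by 1.14 on the log2 scale, from 9.37 and 9.35 with no value on NC2 to between 7.95 and 8.40.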

How the data were processed

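RNA from fetal frontal cortex was labelled with cyanine 3 and hybridized by the authors to 1-colour Agilent sheep arrays. The deposited scanner files hold the intensity of each of 15744 spots per array as read by Feature Extraction, before any normalization between arrays (the file headers give version 10.1.1.1, the paper another). A deposited table of the authors' normalized log2 values served only as an alternative. A genome build behind the probes is not given in the sources used here.

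In R 4.3.3 with limma 3.58.1, 222 outlier spots were left out, the mean signal was corrected with normexp (offset 50) on the median local background, 536 control spots were removed, arrays were quantile normalized and spots of a probe averaged, leaving 15008 probes, and 132 lacked a value on some array. Dim probes were kept. The moderated test used all 16 arrays with 4 group means, so that the spread was shared, and calls were made at an unadjusted P under 0.05 with Benjamini-Hochberg over all probes beside it. A single gene had a two-sided exact permutation test over the 35 ways to divide the 7 arrays, doubling the smaller tail.

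Names came from the RefSeq sheep table (ARS-UI_Ramb_v3.0) or the files and covered 1656 probes, 1025 names, and 13352 probes had none. For lists, 41 older names were matched to symbols, and a gene was represented by its brightest probe. The text names the 12 largest increases and decreases among called named probes detected above background on each array of either group, the measured ketamine targets, and the called members of the other lists. Called names not well above background on every array of a group, such as CCL28 and CLCN2, were left out, apart from members of the lists and TCRD19. FOS, BAX and CITED2 are called through a probe that is not their brightest. The members and lists were chosen with earlier results of these data known.

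The fit was tested on simulated data for this comparison over 14876 probes: of 200 changed probes, 93.0% with a log2 difference of 0.5 and 98.0% with a difference of 1 were called in the right direction, 61.0% and 95.0% of those changed passed the adjustment, and 5.32% of unchanged probes were called. The simulated noise was independent between probes and arrays, and the real arrays called 2.31% of probes. The simulation therefore checks the code and does not give the share of real changes that would be found. The analysis was repeated with changed background correction or normalization, without dim probes, with only the 7 arrays in the fit, with slide or replicate number as a block, with both readings of hypoxia control replicate 1, with the authors' values, with array weights and with each array left out. A further alternative was chosen after seeing the data, with normexp fitted without the few spots far below their local background.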

Additional observations from a re-analysis of the deposited data

Results flagged for a closer look

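In the 4 normoxia + ketamine arrays, 3 of 51 probes examined had a single array far from the others, measured as its gap to the nearest array over the range of the group, and chance gives about 1 in 20 groups. The ratio was 0.861 for ADCYAP1 with NK1 at 9.48, 0.858 for PPARGC1A with NK3 at 8.58, and 0.840 for AHSP, a hemoglobin chaperone of red cells, with NK2 at 6.99. The change with ketamine differed between normoxia and hypoxia, at an unadjusted P under 0.05 in limma, for 15 of 35 genes examined, with adjusted P of at least 0.734 for every one. Over all probes the share was 6.35% (953 probes). Among the probes chosen for naming, the one with the lowest P stood for its gene. Other probes of C3, OPRK1, GRIN1, V15 and isolate 5.4 were also under the threshold. Those of CITED2, CD9, KITLG, BEGAIN, INHA, PPARGC1A and EP4a were not. The difference (normoxia change minus hypoxia change, log2) was above 0 for C3 (1.199), OPRK1 (0.6606), GRIN1 (0.5364), CD9 (0.4971), ST3GAL4 (0.463), KITLG (0.456), CITED2 (0.4396), PPARGC1A (0.4193) and ADRB1 (0.2387). It was below 0 for EM4C (-1.606), V15 (-1.035), the isolate 5.4 probe of T19 (-0.8662), EP4a (-0.5446), INHA (-0.3638) and BEGAIN (-0.3232). These genes were mostly chosen for their change in normoxia, which enters the difference.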

How the results depend on the processing

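The main analysis called 347 probes, 132 higher and 215 lower, and 28 probes of genes named as called, with 9 called members of the lists. Each of the 28 that had a value kept its direction except under normexp scaled to the 75th percentile, where the median of all probes was -0.30, PPARGC1A was -0.079, PTGER3 -0.12, TLR7 -0.44 and ADRB1 -0.37, and 43 probes were called (12 higher, 31 lower), with 5 of the 28 and 1 list member. On that scaling 1 spot of NC2, 3 of hypoxia control replicate 5 and 6 of hypoxia + ketamine replicate 3 lay over 500 below local background, and without such spots, an alternative chosen after seeing the data, 303 were called (72 higher, 231 lower). Of the 28, the processed signal kept 16 after quantile normalization and 18 after scaling to the 75th percentile, which called 14 list members, and moving hypoxia control replicate 1 to normoxia + ketamine kept 18, with 339 called. A filter on dim probes gave 222 (86 higher, 136 lower), the 7 arrays alone 483 (215 higher) with 14 list members, array weights 560 (232 higher, 328 lower), 1 probe per named gene 31, and Benjamini-Hochberg 0 against 347 unadjusted. Slide as a block gave 328. Leaving out each array in turn gave 277 to 516 called, 97 to 217 higher and 137 to 311 lower, 10 to 28 of the named calls and 3 to 14 list members. The lowest counts of named calls came without NC3 (10) and NK3 (12). SFTPC was called in all 31 tested alternatives, and OPRK1, CITED2 and TAC3 in all but normexp scaled to the 75th percentile. Same-numbered fetuses of the groups deviated together with correlations of 0.35, 0.26 and 0.04. Of the 3 controls 2 correlated best with their own number. The labels do not call the numbers pairs, and the main fit left them unpaired, but these values do not exclude a pairing. The replicate block gave 476 called (195 higher, 281 lower) and kept 21 of the 28. Probes not well above background on some arrays, such as those of TLR7 and MCP-3, limit what can be seen of these genes.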
